A study of Mus musculus with 48 samples.

Results

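Apoe, Abca1, Lpl and Fabp5 are 4 of the 757 genes counted by the nCounter Glial panel in mouse cortex, taken here by name because all of them handle lipid in or around microglia. Each transcript on this panel is counted through a fluorescent barcode, without amplification. Total RNA of the cerebral cortex was read in 24 animals, each 7.5 months old. All mice carried the 5xFAD transgenes, human amyloid precursor protein and presenilin genes with familial Alzheimer mutations, driven in neurons by a Thy1 promoter. The 5xFAD controls were 6 females and 6 males, and the 5xFAD Plcg2 KO+/- mice, called Plcg2+/- below, were 6 females and 6 males heterozygous for a Plcg2 knockout allele. Mice without the 5xFAD transgenes were not analysed here, so every difference is between plaque-bearing cortices. Plcg2 itself, an enzyme that signals below the microglial receptor TREM2, was not analysed here, and the labels of genotype and sex could not be checked from the counts. The same animal numbers also appear on a second panel, Neuropathology, with 760 genes, which holds Apoe but not the other 3 genes.

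APOE is the main lipid carrier of the brain. Astrocytes secrete most of it, and microglia near amyloid plaques switch it on. ABCA1 is the membrane pump that loads cholesterol and phospholipid onto APOE particles, and it and Apoe are textbook targets of the sterol-sensing liver X receptors. LPL cuts triglycerides in lipoproteins, and FABP5 carries the released fatty acids inside the cell. In microglia, Apoe, Lpl and Fabp5 belong to the transcripts that rise around plaques, a response that depends only in part on TREM2.

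The genes lie on different mouse chromosomes (RefSeq annotation of GRCm38.p6): Fabp5 on chromosome 3 from 10012585 to 10016610, Abca1 on chromosome 4 from 53030789 to 53159988, Apoe on chromosome 7 from 19696244 to 19701310 and Lpl on chromosome 8 from 68880555 to 68906932. Promoter sequences were at hand for Abca1 and Apoe, the pair whose levels moved together between mice (below). They are shown as the 200 bases before an annotated start site, read 5′ to 3′ on the minus strand of GRCm38.p6, with motif matches in capitals. The first lies at chr4:53159896-53160095 and the second at chr7:19699189-19699388.
Abca1: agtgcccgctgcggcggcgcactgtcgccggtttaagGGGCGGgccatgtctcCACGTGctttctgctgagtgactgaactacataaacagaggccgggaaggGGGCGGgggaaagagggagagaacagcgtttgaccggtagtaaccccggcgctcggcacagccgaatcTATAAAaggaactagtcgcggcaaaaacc
Apoe: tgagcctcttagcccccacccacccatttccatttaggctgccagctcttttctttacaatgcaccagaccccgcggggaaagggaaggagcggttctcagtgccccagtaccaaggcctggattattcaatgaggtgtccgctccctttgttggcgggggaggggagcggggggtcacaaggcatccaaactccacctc
The Abca1 stretch held GGGCGG, the letters of a GC box, with its first base at positions -163 and -97 from the start site, CACGTG, an E-box, at -147, and TATAAA at -29. Of 32817 mouse promoter windows searched on both strands, 35.63% held GGGCGG, 7.149% held CACGTG and 13.62% held TATAAA. The windows of Abca1 and Apoe were 300 bases long, so these shares are for a longer stretch than the 200 bases shown. The Apoe stretch held no match to these letters, nor to AGGTCA (16.26% of windows), GAGGAAGT (3.203%) or TCACNCCAC (1.243%). The nuclear receptor repeats DR1 and DR4 were searched only as exact copies of AGGTCA. No window of either gene held them, and 0.0396% and 0.0152% of all windows did. Looser forms were not searched, so a repeat with changed letters could be present in either gene. Apoe had 3 annotated start sites, and another of its windows held overlapping TATAAA matches on both strands. A match is a run of letters and not a measured binding site.

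Values are log2 normalized counts as deposited, with differences given as Plcg2+/- minus 5xFAD from a limma fit of 4 group means over all 757 genes. A gene is called at an adjusted p under 0.05 (Benjamini-Hochberg over the whole panel). Depth was uneven between the groups. Totals of whole counts, recovered from the step between values, lay between 953461 and 1239109 for the 5xFAD females and between 1773331 and 1897264 for the Plcg2+/- females, without overlap. The male groups shared most of their range, 1428825 to 1775622 for 5xFAD and 1360757 to 1814975 for Plcg2+/-. Apoe was read at 3010 to 11584 whole counts per mouse, Abca1 at 248 to 623, Lpl at 166 to 319 and Fabp5 at 118 to 274. The fewest counts carry the widest counting error, an exact Poisson 95% interval of 97.7 to 141 around the 118 counts of Fabp5. The 5xFAD mice carry animal numbers 1177 to 1270 and the Plcg2+/- mice 3 to 51, so a cohort and the genotype cannot be told apart.

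Over both sexes, 3 of the 4 genes were lower in Plcg2+/- cortex: Apoe, Lpl and Fabp5 fell, and Abca1 did not pass the test. The fitted level of Apoe was 0.838 times that of 5xFAD mice, that of Lpl 0.871 times and that of Fabp5 0.856 times. On this panel 60.5% of all genes were called for genotype and 26.7% were called lower, so a call is common here. The median difference over all 757 genes was 0.04, against which each of the 4 genes lay lower. Tested by sex, Apoe and Abca1 fell in males, and Lpl and Fabp5 fell in females; the test of the difference between the sexes follows below.

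**Figure D1:**
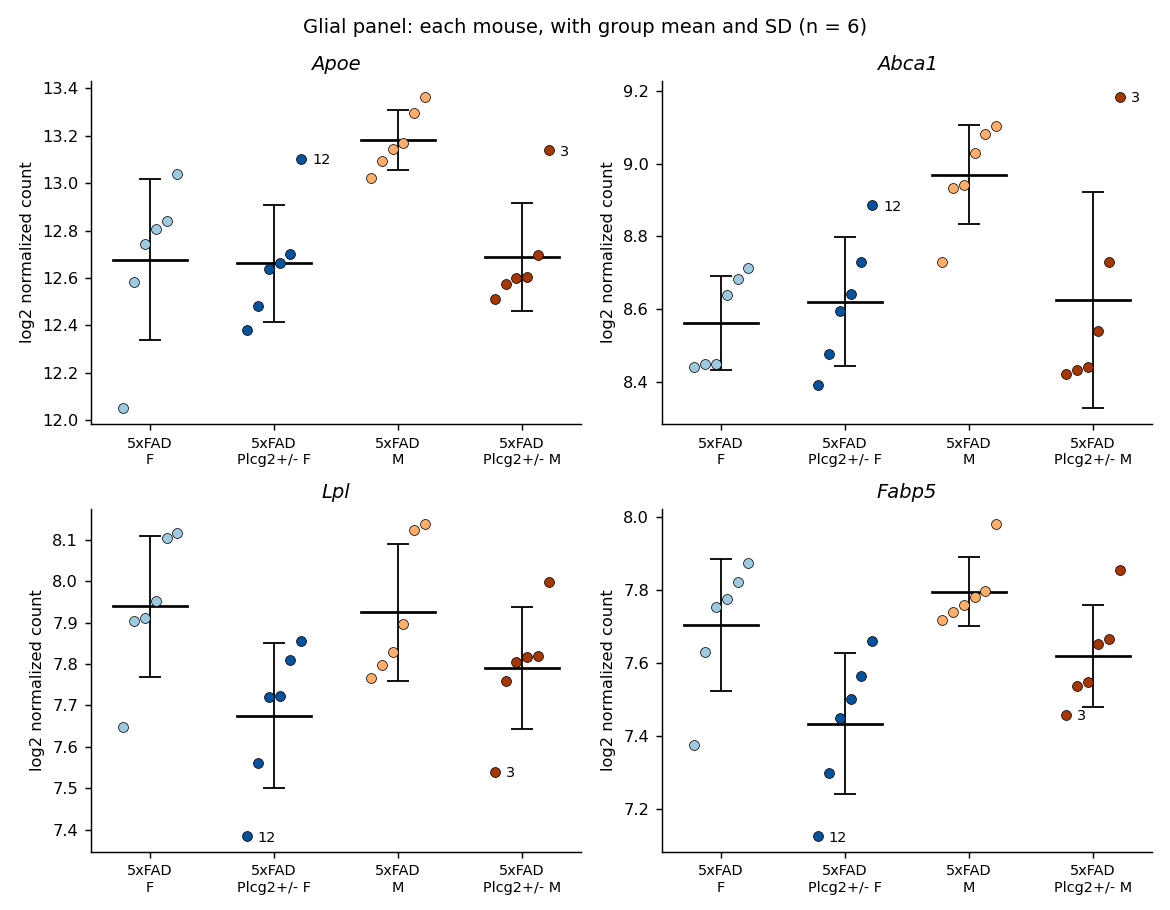
Log2 normalized count (vertical axis) of each mouse in the 4 groups, with bars for the group mean and its SD (n = 6). Plcg2+/- female 12 and male 3 are numbered: they are the highest of their groups for Apoe and Abca1 and the lowest for Lpl and Fabp5.

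Apoe, the lipid carrier, lay at 12.05 (lowest), 12.77 (median) and 13.04 (highest) in 5xFAD females. In Plcg2+/- females the same values were 12.38, 12.65 and 13.10. The female groups lay over each other. In 5xFAD males they were 13.02, 13.16 and 13.36, and in Plcg2+/- males 12.51, 12.60 and 13.14. Of the 6 Plcg2+/- males, 5 were below every 5xFAD male, and the other, male 3, lay among them. The group means were 13.18 ± 0.13 in 5xFAD males, 12.69 ± 0.23 in Plcg2+/- males, 12.68 ± 0.34 in 5xFAD females and 12.66 ± 0.25 in Plcg2+/- females (SD, n = 6 each). The last 3 of that order differed by less than their SDs.

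The Apoe difference over both sexes was -0.25 ± 0.097 (SE, adjusted p = 0.0274), with 10 of 12 Plcg2+/- mice below the 5xFAD mean of their sex. An exact two-sided permutation of the mice within each sex gave p = 0.0341. In males the difference was -0.49 ± 0.14 (adjusted p = 0.00765). In females it was -0.02 ± 0.14 (adjusted p = 0.933, 95% interval -0.30 to 0.27). The call over both sexes rested on single mice and on the model. Without 5xFAD female 1248 the adjusted p was 0.0527 and without Plcg2+/- female 51 it was 0.0519. It was 0.0619 after quantile normalization (-0.23) and 0.0874 in a fit without sex (-0.25).

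Abca1, the pump that lipidates APOE, had its lowest, median and highest values at 8.44, 8.54 and 8.71 in 5xFAD females and at 8.39, 8.62 and 8.89 in Plcg2+/- females. Here 4 of 6 Plcg2+/- females were above the 5xFAD mean. The 5xFAD males were at 8.73, 8.99 and 9.10, and the Plcg2+/- males at 8.42, 8.49 and 9.18. Again 5 Plcg2+/- males were below the 5xFAD range, 1 of them only just, and male 3 was above all of it. The means were 8.97 ± 0.14 in 5xFAD males, 8.62 ± 0.30 in Plcg2+/- males, 8.62 ± 0.18 in Plcg2+/- females and 8.56 ± 0.13 in 5xFAD females, the last 3 within an SD of each other.

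Over both sexes the Abca1 difference was -0.14 ± 0.078 (adjusted p = 0.117, 95% interval -0.31 to 0.02), and the exact permutation p was 0.124. In males it was -0.35 ± 0.11 (adjusted p = 0.0169), a fitted level 0.787 times that of 5xFAD males. In females it was 0.06 ± 0.11 (adjusted p = 0.687). The call over both sexes depended on male 3: without it the difference was -0.20 (adjusted p = 0.00625). It depended on the processing too, since with all mice kept Abca1 was called after quantile normalization and with array weights (below).

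Lpl, the lipoprotein lipase, had its lowest, median and highest values at 7.65, 7.93 and 8.12 in 5xFAD females and at 7.38, 7.72 and 7.86 in Plcg2+/- females. All 6 Plcg2+/- females were below the 5xFAD mean, and 2 of them below every 5xFAD female. The 5xFAD males were at 7.77, 7.86 and 8.14, and the Plcg2+/- males at 7.54, 7.81 and 8.00. The male groups overlapped over most of their range, although 5 of 6 Plcg2+/- males were below the 5xFAD mean. From the highest, the means were 7.94 ± 0.17 in 5xFAD females, 7.92 ± 0.17 in 5xFAD males, 7.79 ± 0.15 in Plcg2+/- males and 7.68 ± 0.17 in Plcg2+/- females, each step smaller than an SD.

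The Lpl difference over both sexes was -0.20 ± 0.066 (adjusted p = 0.0125; exact permutation p = 0.00726), with 11 of 12 Plcg2+/- mice below their 5xFAD mean. In females it was -0.26 ± 0.094 (adjusted p = 0.0206), and in males -0.14 ± 0.094 (adjusted p = 0.247, 95% interval -0.33 to 0.06). The female call was lost without 5xFAD female 1248 (adjusted p = 0.0515), without 5xFAD female 1249 (0.0512) or without Plcg2+/- female 12 (0.0588).

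Fabp5, the fatty acid carrier, had its lowest, median and highest values at 7.38, 7.77 and 7.88 in 5xFAD females and at 7.13, 7.48 and 7.66 in Plcg2+/- females. As for Lpl, all 6 Plcg2+/- females were below the 5xFAD mean and 2 below every 5xFAD female. The 5xFAD males were at 7.72, 7.77 and 7.98, and the Plcg2+/- males at 7.46, 7.60 and 7.86. Male 46 was the 1 Plcg2+/- male within the 5xFAD range, and the other 5 were below it. The means were 7.80 ± 0.095 in 5xFAD males, 7.71 ± 0.18 in 5xFAD females, 7.62 ± 0.14 in Plcg2+/- males and 7.43 ± 0.19 in Plcg2+/- females, neighbours again differing by no more than the larger of their SDs.

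Of the 4 genes Fabp5 had the smallest genotype p. Its difference over both sexes was -0.22 ± 0.063 (adjusted p = 0.00415; exact permutation p = 0.00205), again with 11 of 12 Plcg2+/- mice below their 5xFAD mean. In females it was -0.27 ± 0.089 (adjusted p = 0.0132). In males it was -0.18 ± 0.089 (adjusted p = 0.114, 95% interval -0.36 to 0.01). The exact permutation of this single gene gave an unadjusted p = 0.0346 in males and the same p in females. The call over both sexes, and that in females, held when any 1 mouse was left out (adjusted p up to 0.0089 and up to 0.0393).

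**Figure D2:**
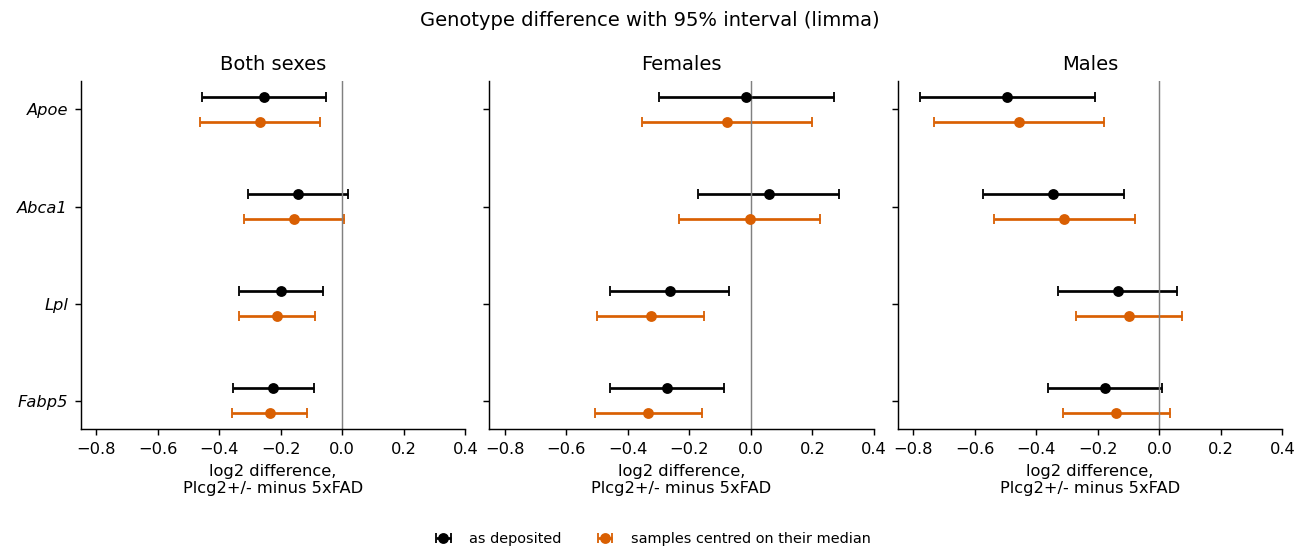
Genotype difference of the 4 genes with its 95% interval from limma (horizontal axis, log2) over both sexes, in females and in males, for the deposited values and for samples centred on their median. The intervals of Apoe and Abca1 lie below 0 in males and span it in females; those of Lpl and Fabp5 lie below 0 in females and reach past it in males.

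In females 2 of the 4 genes were called lower, against 20.3% of all genes called lower and 54.8% called either way. In males 2 of 4 were called lower, against 23.5% called lower and 40.7% called either way. Whether the sexes differed was tested by the interaction, the male difference minus the female one, for which 21.9% of all genes were called. None of the 4 genes was called in it, and 2 had an unadjusted p under 0.05. The interaction was -0.48 ± 0.19 for Apoe (adjusted p = 0.0774) and -0.40 ± 0.16 for Abca1 (adjusted p = 0.0641). For Lpl it was 0.13 ± 0.13 (adjusted p = 0.518) and for Fabp5 0.10 ± 0.13 (adjusted p = 0.624). Apoe and Abca1 passed without male 3 (adjusted p = 0.0221 and 0.00281). Apoe also passed without 5xFAD female 1248 (0.0410), and Abca1 without Plcg2+/- female 51 (0.0444) or 5xFAD male 1182 (0.0430). A different genotype effect in the sexes was therefore not shown for Lpl or Fabp5, and for Apoe and Abca1 it depended on which mice were kept.

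Markers of several cell types differed by genotype beside these genes, on a panel where 60.5% of all genes did. Over both sexes 256 of 757 genes were higher and 202 lower. In females 261 were higher and 154 lower, and in males 130 were higher and 178 lower. Over both sexes the microglial, astrocyte and oligodendrocyte markers were called no more often than all genes, so their counts do not set them apart. Of 10 listed endothelial markers 5 were measured. In males 4 were lower in Plcg2+/- mice and in females 1 was lower and 1 higher. Their summed level was 863 to 1121 normalized counts in 5xFAD males and 554 to 751 in Plcg2+/- males, without overlap, and 476 to 712 and 438 to 634 in the female groups. Male 3 had an endothelial sum of 632, inside the range of its group. Whether the endothelial shift bears on the 4 genes was not tested.

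The 15 microglial markers, all measured, summed to 15407 to 20290 in 5xFAD males and 14210 to 19403 in Plcg2+/- males, with 4 lower and 1 higher. In females they summed to 16339 to 22976 and 17641 to 21747, with 2 lower and 3 higher. Of 10 astrocyte markers 7 were measured, with 2 lower and none higher in males and 4 higher and 1 lower in females. They summed to 32950 to 37685 in 5xFAD males and 33377 to 39956 in Plcg2+/- males, and to 28705 to 32789 and 31521 to 37581 in females. S100b, an astrocyte calcium-binding protein, fell by 0.47 over both sexes (adjusted p = 3.91e-06), and Slc1a3, the astrocyte glutamate transporter, rose by 0.26 (adjusted p = 0.000662).

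Over both sexes all 4 oligodendrocyte precursor markers were higher in Plcg2+/- mice (median difference 0.45), and of 8 measured oligodendrocyte markers 2 were higher and 1 lower. Of 11 measured neuronal markers 6 were higher and 1 lower, with a median difference of 0.13. On the Neuropathology panel 7 neuronal markers were measured in the same mice. There 2 were higher and 4 lower, with a median difference of -0.54 (-0.46 with samples centred on their median). The direction of the neuronal markers thus depended on the panel. Of 9 lymphocyte markers 4 were higher and none lower. Of 9 markers of border macrophages, monocytes and neutrophils only Cd163 was measured, and it was higher by 0.65 (adjusted p = 0.000294). No endothelial, microglial or astrocyte marker was at 0 in any mouse, the lowest being 35.2 normalized counts. The lymphocyte markers and Cd163 were read at fewer counts, with lowest single values of 1.13 and 11.7, so their differences are less certain. In RNA of whole cortex, fewer cells of a type and less RNA per cell cannot be told apart, and the part of these shifts in the results was not tested.

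Male minus female, Apoe was higher by 0.27 ± 0.097 (adjusted p = 0.016), Abca1 by 0.21 ± 0.078 (adjusted p = 0.0196) and Fabp5 by 0.14 ± 0.063 (adjusted p = 0.0489), while Lpl differed by 0.05 ± 0.066 (adjusted p = 0.477). These 3 calls stood against 81.2% of all genes called for sex and a median shift of 0.27 over all genes toward males. The median gene was at 564 to 631 normalized counts in the female samples and at 675 to 730 in the male samples. With each sample centred on its own median, 41.6% of genes were called, and of the 4 only Lpl, which was lower in males by a difference of -0.17 ± 0.059 (adjusted p = 0.0267). Centred, Apoe differed by 0.05, Abca1 by -0.01 and Fabp5 by -0.08, so that relative to the panel the direction of Abca1, Lpl and Fabp5 turned. The genotype differences moved less: centred, they were -0.27 for Apoe, -0.16 for Abca1, -0.21 for Lpl and -0.24 for Fabp5, with the same 3 genes called.

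The second panel read Apoe again in the same animals with its own code set. Its lowest, median and highest values there were 12.82, 13.07 and 13.30 in 5xFAD females and 12.68, 12.88 and 13.39 in Plcg2+/- females. In 5xFAD males they were 13.43, 13.57 and 13.78, and in Plcg2+/- males 12.91, 13.02 and 13.71. As on the Glial panel, Plcg2+/- female 12 and male 3 were the highest of their groups and 5 Plcg2+/- males lay below all 5xFAD males. The scale of the samples had the same order on this panel. The median gene was at 430 to 464 normalized counts in those 5 males, 563 in male 3 and 521 to 560 in 5xFAD males. Female 12 had the highest median of its group, 412. With samples centred on their median, 4 Plcg2+/- males lay below all 5xFAD males for Apoe. The genotype difference was -0.30 ± 0.089 (adjusted p = 0.00503; exact permutation p = 0.00598), on a panel where 71.6% of genes were called. It was -0.15 ± 0.13 in females (adjusted p = 0.315), -0.45 ± 0.13 in males (adjusted p = 0.00449), and the interaction was -0.30 ± 0.18 (adjusted p = 0.216).

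The sex pattern of Apoe on this second panel changed with the scale. After centring each sample on its median, which left 71.7% of genes called, the difference was -0.22 ± 0.068 over both sexes (adjusted p = 0.00622). It was then -0.22 ± 0.096 in females (adjusted p = 0.0636) and -0.23 ± 0.096 in males (adjusted p = 0.0432), with an interaction of -0.01 ± 0.14 (adjusted p = 0.961). On the Glial panel the centred difference stayed at -0.08 in females and -0.46 in males, with an interaction of -0.38 (adjusted p = 0.153). The genotype difference of Apoe over both sexes was called on both panels, as deposited and centred, but not on the Glial panel after quantile normalization (adjusted p = 0.0619) or in a fit without sex (0.0874). The interaction was called on neither panel, as deposited or centred.

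**Figure D3:**
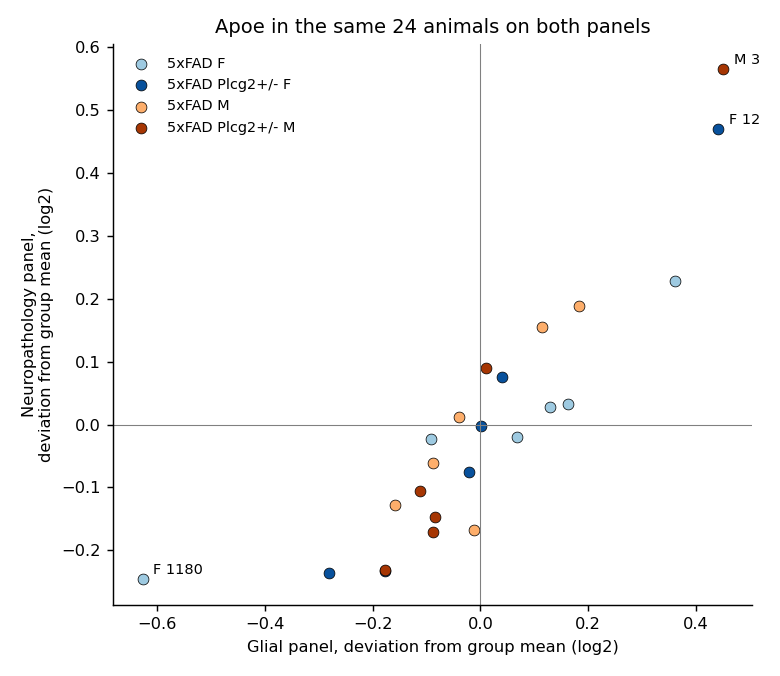
Apoe of each of the 24 animals as its deviation from its group mean (log2) on the Glial panel (horizontal axis) and on the Neuropathology panel (vertical axis). The points run along a rising line, with Plcg2+/- female 12 and male 3 at the upper right and 5xFAD female 1180 at the lower left on both panels.

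Apart from genotype and sex, the mouse-to-mouse deviations of Apoe were repeated by the second panel. Over 24 mice Pearson's r was 0.88 and Spearman's rho 0.92 (permutation p = 1e-05 each, the smallest that 100000 permutations can give), and r was 0.92 without the 2 mice farthest from the median. The animals were shared, so this is a technical repeat and not a second set of mice.

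Within groups, 1 of the 6 pairs of genes passed as varying together. Deviations of Apoe and Abca1 from their group means rose together, with r = 0.68 (permutation p = 0.00029, adjusted over 6 pairs 0.00174) and rho = 0.63 (permutation p = 0.002, adjusted 0.012) over 24 mice. Without the 2 mice farthest from the median of Apoe r was 0.65, and without Plcg2+/- female 12 and male 3 it was 0.48. Lpl and Fabp5 gave r = 0.41 and rho = 0.41 (permutation p = 0.0668 and 0.0573, adjusted 0.2 and 0.172), r = 0.41 without the farthest 2 mice and 0.19 without female 12 and male 3. The 4 pairs across these had r between -0.30 and 0.07, and none passed (lowest adjusted permutation p = 0.346). Of these, Apoe with Fabp5 went from 0.07 to 0.53 when female 12 and male 3 were left out.

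**Figure D4:**
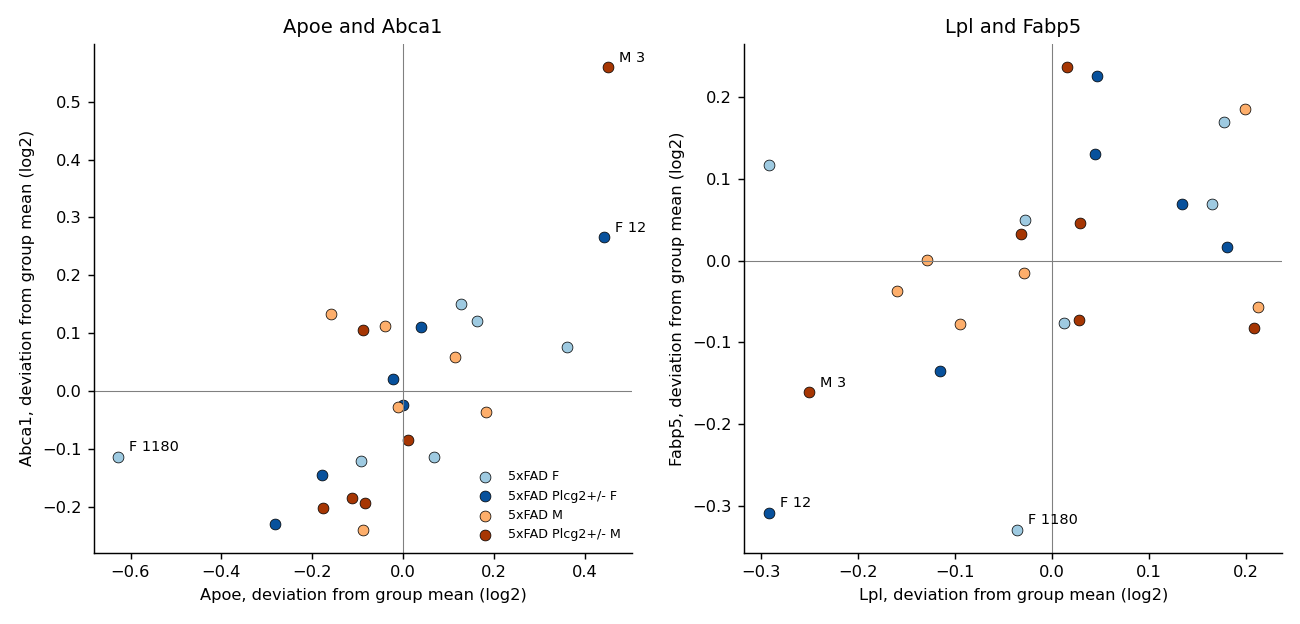
Deviations from the group mean (log2) of each of the 24 mice, for Abca1 against Apoe (left) and Fabp5 against Lpl (right). Plcg2+/- female 12 and male 3 lie at the upper right for the first pair (r = 0.68) and at the lower left for the second (r = 0.41).

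Female 12 and male 3 combined the highest Apoe and Abca1 of their groups with the lowest Lpl and Fabp5. In female 12 Apoe was 13.10, Abca1 8.89, Lpl 7.38 and Fabp5 7.13, and in male 3 they were 13.14, 9.18, 7.54 and 7.46. Both had the lowest summed oligodendrocyte precursor markers of their groups, 3002 against 3966 to 4600 in the other 5 females and 3280 against 5009 to 5908 in the other 5 males. Both were also lowest for oligodendrocyte markers (21644 and 23948) and neuronal markers (67643 and 79950). Their microglial sums ranked differently, male 3 being highest of its group at 19403 and female 12 within its group at 20291. On the Glial panel both had the lowest total count of their group (1773331 and 1360757), and on the Neuropathology panel the highest (1603006 and 1587858), while their Apoe was highest on both. What sets these mice apart was not tested.

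Values without both mice are given as a description, since the pair was chosen with their values known. They hold the highest Apoe and Abca1 of the Plcg2+/- groups, so leaving them out must lower those genes there, and must raise Lpl and Fabp5, of which they hold the lowest values. The Apoe difference over both sexes was then -0.34 ± 0.084 and that of Abca1 -0.23 ± 0.056, while that of Lpl was -0.15 ± 0.060 and that of Fabp5 -0.18 ± 0.058. Each of the 4 had an adjusted p under 0.05 in this fit, as had 64.5% of all genes, with 28% of all genes called lower. On the Neuropathology panel, where these mice were again the highest for Apoe, its difference without them was -0.24 in females and -0.56 in males.

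The genes whose deviations most resembled each of the 4 were taken by Pearson's r over the 24 mice, as a description. For Apoe they were Ctsb (cathepsin B, a lysosomal protease, r = 0.92), Lamp1 (a lysosomal membrane protein, r = 0.92), Ddah1 (0.86), Ap2m1 (a clathrin adaptor subunit, 0.86) and Serpine2 (a protease inhibitor, 0.86). The lysosomal pair stayed closest without female 12 and male 3, at 0.89 and 0.90. For Abca1 they were Map2 (a neuronal microtubule protein, 0.85), Serpine2 (0.85), Mmut (a mitochondrial mutase, 0.80), C1qb (a complement chain, 0.80) and Ddah1 (0.79). Without those mice they were lower, at 0.54 to 0.69.

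For Lpl the nearest were Plxdc2 (0.84), Axl (a phagocytic receptor, 0.78), Csf1r (the microglial growth factor receptor, 0.74), Aqp4 (the astrocyte water channel, 0.72) and Ctsl (cathepsin L, 0.71). For Fabp5 they were Snap25 (a synaptic fusion protein, 0.75), Ndufb5 (a respiratory chain subunit, 0.73), Nckap1 (0.69), Kcnk13 (a potassium channel, 0.69) and Cx3cl1 (the neuronal chemokine fractalkine, 0.68). Without female 12 and male 3 these r were 0.61 to 0.85 for Lpl and 0.58 to 0.73 for Fabp5. Plxdc2, Axl and Csf1r stayed among the nearest 5 of Lpl, and Snap25 and Ndufb5 among those of Fabp5. Aqp4 and Ctsl then ranked 14 and 7 for Lpl, and Nckap1, Kcnk13 and Cx3cl1 ranked 20, 35 and 18 for Fabp5. Likeness between mice did not mean the same genotype difference. Lamp1 fell by 0.17 (adjusted p = 0.00392) and Ctsb by 0.14 (adjusted p = 0.0416) as Apoe did. Csf1r was higher in Plcg2+/- mice by 0.32 ± 0.062 (adjusted p = 0.000155), and Axl by 0.15 ± 0.062 (adjusted p = 0.0413), while Lpl was lower.

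Few other lipid genes were on the Glial panel, and they did not move one way. Of 18 listed lipoproteins and their receptors 3 were measured. Msr1, a scavenger receptor of macrophages, rose by 0.73 ± 0.24 (adjusted p = 0.0109). It was called in neither sex alone, and the lowest single value among the 3 genes was 2.48 normalized counts. Trem2, the lipid-sensing microglial receptor, differed by -0.26 ± 0.11 (adjusted p = 0.051) and Lsr by 0.02 (adjusted p = 0.899). Of 21 genes of sterol efflux, esters and nuclear receptors only Tspo was measured, at -0.15 (adjusted p = 0.171), and of 15 genes of sterol synthesis none.

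Of 47 listed genes of fatty acid carriage, storage and oxidation 5 were measured, 2 rose and 2 fell. Acly, which makes cytosolic acetyl-CoA, rose by 0.44 ± 0.058 (adjusted p = 1.81e-06), and Acsl4, which activates long polyunsaturated fatty acids, by 0.12 ± 0.043 (adjusted p = 0.0202). Acat1, the mitochondrial thiolase, fell by 0.31 ± 0.034 (adjusted p = 1.48e-07) and Acsl3, which activates fatty acids for lipid droplets, by 0.26 ± 0.057 (adjusted p = 0.000446). Acadm differed by 0.05 (adjusted p = 0.475). The median of these 5 differences was 0.05, beside 0.04 for all genes.

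The other microglial activation genes were mixed as well. Of 20 listed, 18 were measured, and 5 rose, 4 fell and 9 did not pass, with a median difference of -0.01. In females 4 rose and 4 fell, and in males 2 rose and 3 fell. The genes that rose over both sexes were Itgax, Igf1, Csf1, Ank and Axl, and those that fell were Cd9, Clec7a, Tyrobp and Ctsb. The smallest p-values belonged to Cd9, a tetraspanin (-0.58 ± 0.062, adjusted p = 1.25e-07), Clec7a, the beta-glucan receptor dectin-1 (-0.61 ± 0.087, adjusted p = 4.34e-06), Itgax, the integrin CD11c (0.78 ± 0.12, adjusted p = 1.74e-05), and Tyrobp, the adaptor of TREM2 (-0.39 ± 0.076, adjusted p = 0.000169). Clec7a differed by -0.92 in females (adjusted p = 2.58e-06) and by -0.30 in males (adjusted p = 0.0548), with an interaction of 0.62 (adjusted p = 0.012).

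**Figure D5:**
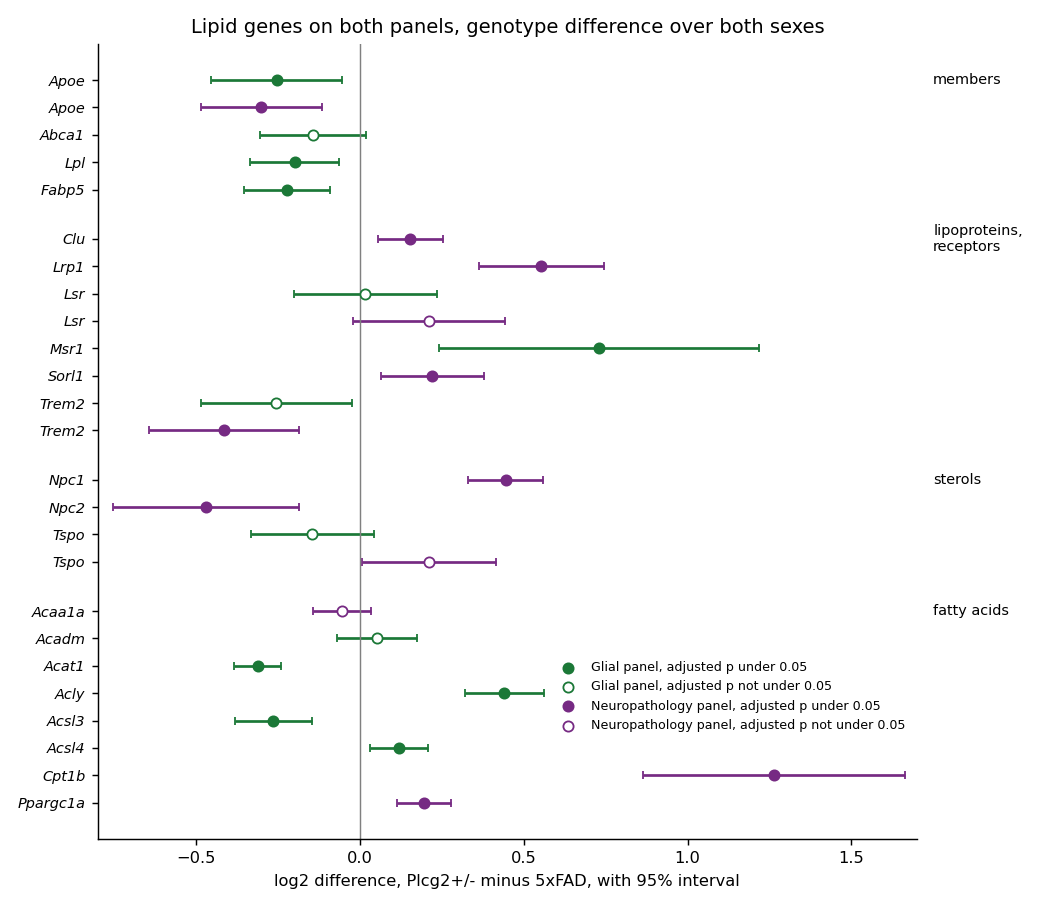
Genotype difference over both sexes (horizontal axis, log2) with its 95% interval for Apoe, Abca1, Lpl, Fabp5 and the other listed lipid genes on the Glial and Neuropathology panels, filled where the adjusted p was under 0.05. Differences run from -0.47 for Npc2 to 1.26 for Cpt1b, with called genes on both sides of 0.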

How the data were processed

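The authors deposited log2 values, 1 per gene and sample, for 24 Glial and 24 Neuropathology samples. Per the labels, total RNA was prepared with a Purelink kit and run by the standard NanoString protocol. How they were normalized is not given in the sources used here. Within a sample all values were multiples of a single step (100% within 0.05 of a whole number), which gave whole counts. The 48 samples fell into genotype by sex groups of 6 mice by the labels. P-values cover the spread between these mice.

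The 4 group means were fitted in R 4.3.3 with limma 3.58.1 (lmFit, then eBayes on the contrasts) to the whole table, with no filter and Benjamini-Hochberg adjustment. The script was tested on simulated data. Exact permutations used 853776 relabellings within both sexes, or 924 within 1. Correlations used 100000 permutations within group (Python 3.11.15, scipy 1.17.1). Genes with a mean under 20 normalized counts (65) were left out only in an alternative. Other alternatives were median centring, quantile normalization, trended and robust eBayes, array weights, fits without sex or of 1 sex, and each mouse left out. limma's voom on the whole counts, scaled by sample totals, centring on the Neuropathology panel, and leaving out 2 mice there were added after seeing the data.

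Named genes were the 4, the 5 most correlated with each, and up to 4 called lipid genes per list. These genes and all lists were chosen with earlier results of these data known. The animal numbers are shared by the panels, so the 2 readings of Apoe in 1 mouse are technical repeats. They were fitted with the animal as a block. The block correlation, 0.32, was a single value for all 251 genes on both panels, while Apoe itself had r = 0.88 between the panels. The SE and p of Apoe in that joint fit are therefore too small. Promoters are from RefSeq (GRCm38.p6). 2 of the 4 genes matched.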

Additional observations from a re-analysis of the deposited data

Results flagged for a closer look

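Among 20 groups of 6 mice tested, 2 had a mouse whose gap to its nearest neighbour exceeded Dixon's 95% critical share of the range, 0.625, which chance exceeds in about 1 of 20 groups. For Apoe on the Glial panel, Plcg2+/- male 3 stood above the other 5 at 13.14. For Fabp5, 5xFAD male 1181 stood above the other 5 at 7.98.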

How the results depend on the processing

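The differences of Lpl and Fabp5 over both sexes kept direction and call under every alternative run on the Glial panel (-0.21 to -0.15 and -0.24 to -0.18, and also with any 1 mouse left out), as did the male differences of Apoe and Abca1 (-0.59 to -0.42 and -0.46 to -0.31). Median centring turned Abca1 in females to -0.0036 and the sex differences of Abca1, Lpl and Fabp5 to -0.012, -0.17 and -0.081, with 0.047 for Apoe (not called) and 315 genes called. Quantile normalization gave Apoe -0.23 (adjusted p = 0.0619) and Abca1 -0.20 (adjusted p = 0.0303) for genotype and -0.087 for Abca1 in females. For sex it gave -0.055 for Apoe, 0.011 for Abca1, -0.14 for Lpl, -0.045 for Fabp5 and 293 genes. Voom on totals, chosen after seeing the data, gave 0.018 for Apoe in females, called the Apoe interaction (-0.48, adjusted p = 0.0491), and gave sex differences of 0.014, -0.050, -0.20 and -0.12 for Apoe, Abca1, Lpl and Fabp5, with 326 genes called. Voom with TMM scaling was not run. Trended, robust eBayes called the Abca1 interaction (-0.40, adjusted p = 0.0495) and lost Fabp5 for sex (0.14, adjusted p = 0.0534). Array weights called Abca1 for genotype (-0.21, adjusted p = 0.00279) and the interactions of Apoe (-0.45) and Abca1 (-0.48), with 256 genes called in the interaction, and lost Fabp5 for sex (0.11). Without Plcg2+/- female 12 and male 3, which hold the highest Apoe and Abca1 of their groups, Abca1 for genotype (-0.23) and the interactions of Apoe (-0.48) and Abca1 (-0.46) were called and Fabp5 for sex (0.12) was lost. A fit without sex gave Apoe -0.25 (adjusted p = 0.0874). Leaving out 1 mouse at a time gave ranges of -0.32 to -0.22 for Apoe, -0.20 to -0.12 for Abca1, -0.14 to 0.057 for Apoe in females, -0.32 to -0.21 for Lpl in females, -0.57 to -0.35 and -0.51 to -0.35 for the interactions of Apoe and Abca1, and 0.10 to 0.16 for Fabp5 by sex. With both panels in 1 fit and the animal number as replicate block, Apoe was at -0.28 ± 0.069 (adjusted p = 0.000487), and centred at -0.24, and its call did not change. That SE and p are too small, because the block correlation of 0.32, shared by all genes, lay below the r of 0.88 for Apoe. Causes were not tested. Genotypes share no animal numbers and could not be paired. Depth limits Lpl and Fabp5 most, read at 118 to 319 whole counts.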

Other observations

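Lipid genes on the Neuropathology panel, most of them not among the Glial panel's genes, also moved both ways in Plcg2+/- cortex. Lrp1, a large receptor that takes up APOE particles, rose by 0.55 ± 0.092 (adjusted p = 2.54e-05), Clu, a lipid-carrying apolipoprotein, by 0.15 ± 0.048 (adjusted p = 0.00737), and Sorl1, a sorting receptor, by 0.22 ± 0.076 (adjusted p = 0.0133). Trem2, which is on both panels, fell by 0.42 ± 0.11 there (adjusted p = 0.00221), against -0.26 ± 0.11 on the Glial panel (adjusted p = 0.051). The lysosomal cholesterol exporters went opposite ways, Npc1 rising by 0.45 ± 0.055 (adjusted p = 8.2e-07) and Npc2 falling by 0.47 ± 0.14 (adjusted p = 0.00466). Cpt1b, a mitochondrial carnitine palmitoyltransferase, rose by 1.26 ± 0.19 (adjusted p = 1.01e-05) and Ppargc1a, a coactivator of mitochondrial genes, by 0.20 ± 0.040 (adjusted p = 0.000212).

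The panels did not always give the same direction for a gene or a list of markers. Neuronal markers had a median difference of 0.13 on the Glial panel and -0.54 on the Neuropathology panel. Of 8 oligodendrocyte markers on the Glial panel 2 were higher and 1 lower. Of 6 on the Neuropathology panel 1 was higher and 2 lower. Endothelial markers kept their direction, with 3 of 5 lower and none higher on each panel. How many of all shared genes disagreed was not counted. Igf1, a growth factor of activated microglia, was higher by 0.36 on the Glial panel (adjusted p = 0.0018) and lower on the Neuropathology panel, at -0.42 ± 0.14 (adjusted p = 0.0144), in the same animals. Apoe was lower on both.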
